A study of Homo sapiens with 18 samples.

Results

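Chemokine genes that colon epithelial cells can switch on were followed by RNA sequencing in HCT116, an established line of human colorectal cancer cells. The 7 genes were chosen by symbol from the table of read counts: CXCL8, CXCL1, CXCL2, CXCL3, CXCL5, CCL20 and CXCL16, out of 61552 genes in the table. Of these, 6 passed a filter on low counts and were among the 19038 genes tested, while CXCL5, with 18 counts over all libraries, was not. All cells carried a knock-in at the gene of IκBα, the inhibitor that keeps NF-κB in the cytoplasm, and the knock-in was of the wild-type protein (WT), of a mutant named N108 after residue 108, or of a mutant named M3 with alanine at residues 84, 85 and 86. For each of the 3 genotypes there were 3 untreated libraries and 3 from cells given human TNFα (0.1 µg/mL) for 40 min, 18 in all, with 49021907 to 76947190 counts each. The labels do not say how many clones stand behind a genotype or whether replicates were separate cultures, so the error behind each p-value is that among libraries and may be technical only, and a genotype cannot be told apart from the line that carries it. Counts per gene cannot show a point mutation and so do not check the genotypes. NFKBIA, the gene of IκBα, was present in every library, with 91.6 ± 4.57 CPM (counts scaled to library size; SD, n = 3) for untreated WT, 30.3 ± 1.82 for N108 and 77.9 ± 1.17 for M3. With TNF it had 758 ± 19.8, 276 ± 19.5 and 966 ± 20.9 CPM.

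Chemokines are small secreted proteins that guide leukocytes to a tissue. CXCL8 (interleukin 8) and its relatives CXCL1, CXCL2, CXCL3 and CXCL5 attract neutrophils through the receptors CXCR1 and CXCR2, and in people they lie together on chromosome 4. CCL20 acts through CCR6 on dendritic cells and lymphocytes and is made by the epithelium over gut lymphoid tissue. CXCL16 is made as a membrane protein that binds CXCR6 and can be shed from the surface. TNF breaks down IκBα, frees NF-κB and lets it bind κB sites in promoters, and the chemokine genes are textbook targets of that route.

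The promoters of the neutrophil chemokines are shown because 5 of them hold the same 9 letters at nearly the same distance from the start. The RefSeq table of promoters (GRCh38.p14, 250 bases before to 50 after each start) held 6 of the 7 genes, and it had no entry for CXCL16. The stretches run from position -130 to -41 counted from the RefSeq start, 5′ to 3′ on the strand of the gene, at chr4:73869263-73869352 (plus strand), chr4:74099236-74099325 (minus), chr4:74038730-74038819 (minus), chr4:73998718-73998807 (minus), chr4:73740439-73740528 (plus) and chr2:227813712-227813801 (plus). Capitals mark the κB match: the 9 letters GGAATTTCC in the CXCL genes, and for CCL20 the run covered by 3 overlapping matches to the looser pattern GGGNNNNNCC.
CXCL1: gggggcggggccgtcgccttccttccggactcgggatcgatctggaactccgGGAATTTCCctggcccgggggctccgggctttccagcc
CXCL2: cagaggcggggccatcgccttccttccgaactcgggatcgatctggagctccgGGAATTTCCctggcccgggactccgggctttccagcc
CXCL3: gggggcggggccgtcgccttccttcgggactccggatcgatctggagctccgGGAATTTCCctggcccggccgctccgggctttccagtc
CXCL5: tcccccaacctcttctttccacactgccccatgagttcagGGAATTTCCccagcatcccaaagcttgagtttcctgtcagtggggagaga
CXCL8: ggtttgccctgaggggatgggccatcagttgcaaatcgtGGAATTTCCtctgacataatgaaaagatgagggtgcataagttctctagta
CCL20: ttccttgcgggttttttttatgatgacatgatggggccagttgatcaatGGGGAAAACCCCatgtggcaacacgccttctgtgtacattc
GGAATTTCC stood in 5 of these 6 promoters and in 162 of the 35116 promoters of the table, which is 0.461%, with both strands searched. These 9 letters are 1 exact sequence that the CXCL genes carry and not a general κB pattern. The 5 of 6 is therefore a description and no test against that share. Its last base lay 70 bases before the start in CXCL1 and CXCL3, 69 in CXCL2, 82 in CXCL5 and 83 in CXCL8. The 10-letter pattern GGGNNNNNCC, which overlaps the 9 letters in 4 of those promoters, stood in 6 of 6, but 58.7% of all promoters hold it too. The CCL20 run lay 81 to 70 bases before the start. TGANTCA, the AP-1 motif, was found in CXCL8 (1 of 6, against 7.71% of all promoters), TATAAA in CXCL8 and CCL20 (2 of 6, against 11.5%), and TTGCNNCAA, a C/EBP pattern, in 0 of 6 (1.98%). Only exact matches to these patterns were counted, so a C/EBP site with other letters would be missed. The 40 bases on each side of the 9 letters were compared position by position, with no gaps allowed. CXCL1 and CXCL3 were identical at 91.2% of 80 positions, CXCL1 and CXCL2 at 72.5%, and CXCL2 and CXCL3 at 67.5%. Just after the match CXCL2 is 1 base shorter than CXCL1 and CXCL3, as the printed stretches show. Later bases of CXCL2 were thus compared out of step, and its values understate the likeness. CXCL5 and CXCL8 shared 18.8% to 37.5% of these positions with each other and with the other 3 genes. The sequence around the match was therefore alike among CXCL1, CXCL2 and CXCL3 only, as far as these 5 promoters and a comparison without gaps go. A match is a run of letters, and binding was not measured.

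**Figure D1:**
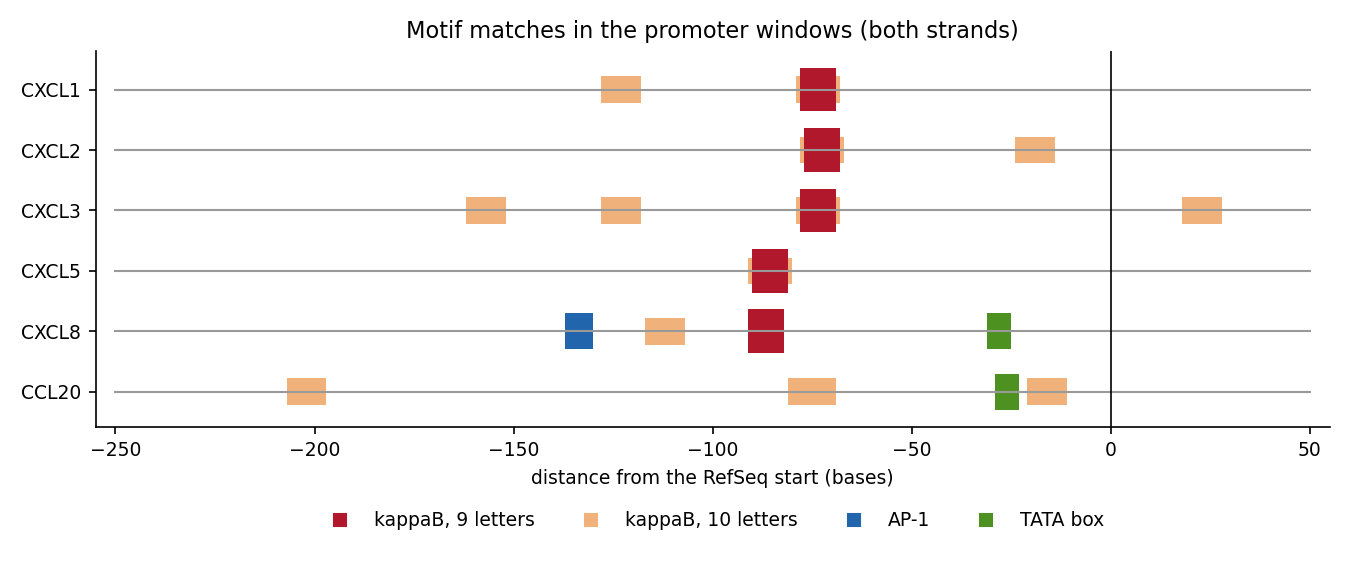
Matches to 4 motifs in the promoter windows of 6 chemokine genes; the horizontal axis is the distance from the RefSeq start in bases, and each box spans a match on either strand. The 9-letter κB match (tall dark boxes) ends 69 to 83 bases before the start in CXCL1, CXCL2, CXCL3, CXCL5 and CXCL8, and TATA boxes are seen in CXCL8 and CCL20.

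TNF raised the neutrophil chemokines CXCL8, CXCL1, CXCL2 and CXCL3 and the lymphocyte chemokine CCL20 in all 3 genotypes, from levels near or under 2 CPM. Fold changes ran from 68.2 for CXCL3 in WT to 218 for CXCL1 in M3 among the CXCL genes. CXCL5 was too low to be tested, and CXCL16 changed by 1.25-fold at most. By log2 fold change CXCL8, CXCL1, CXCL2, CXCL3 and CCL20 ranked between 1 and 8 of the 19038 genes in each genotype. With CXCL16 included, 6 of the 6 members tested rose in WT, where 2.03% of all genes tested rose (3.15% fell). In N108 5 of 6 rose, against 1.1% of all genes (0.0998% fell), and in M3 5 of 6 rose, against 1.1% (0.278% fell). CCL20 passed the low-count filter through the TNF libraries alone and so had to differ; without it 5 of 5, 4 of 5 and 4 of 5 rose. The median log2 fold change of the 6 was 6.32 (WT), 6.53 (N108) and 7.28 (M3), or 6.11, 6.28 and 6.81 without CCL20, while that of all genes lay between 0 and 0.01. These calls, with an adjusted p under 0.05 in edgeR's quasi-likelihood test and Benjamini-Hochberg adjustment, compare groups of cells: in bulk RNA a higher level in every cell and a larger share of responding cells cannot be told apart.

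CXCL8 was measured at 1.91, 1.83 and 2.02 CPM in the untreated WT libraries and at 116, 132 and 147 CPM with TNF. In N108 the values were 0.973, 1.04 and 1.05 CPM untreated and 107, 119 and 111 CPM with TNF. In M3 they were 0.9, 0.975 and 0.964 CPM untreated and 189, 205 and 215 CPM with TNF. Every TNF library thus lay far above every untreated one, M3 was highest with TNF, and WT was highest without it. The log2 fold changes of CXCL8 were 6.11 (SE 0.0876) in WT, 6.78 (SE 0.0949) in N108 and 7.74 (SE 0.0975) in M3, with adjusted p-values from edgeR of 4.2e-27, 2.2e-27 and 1.4e-28.

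CXCL1, the closest match to CXCL8 in these libraries, was measured at 0.888, 0.890 and 1.00 CPM in untreated WT and at 85.2, 92.9 and 97.9 CPM with TNF. N108 gave 0.571, 0.456 and 0.540 CPM untreated and 89.8, 110.5 and 85 CPM with TNF. M3 gave 0.744, 0.553 and 0.561 CPM untreated and 129, 143 and 135 CPM with TNF. The untreated mutants lay below WT without overlap, and with TNF only M3 stood apart. The log2 fold changes of CXCL1 were 6.64 (SE 0.114), 7.52 (SE 0.123) and 7.77 (SE 0.121) in WT, N108 and M3, with an edgeR adjusted p of at most 1.5e-22.

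CXCL2 and CXCL3 encode the closest relatives of CXCL1. CXCL3 lay between 0.348 and 0.631 CPM over the 9 untreated libraries, which overlapped between genotypes. With TNF it was measured at 27.4, 30.4 and 29.8 CPM in WT, at 35.8, 42.0 and 28.5 CPM in N108, and at 57.2, 63.6 and 60.2 CPM in M3. CXCL2 lay between 0.200 and 0.374 CPM untreated, and with TNF at 21.7, 25.7 and 25.6 CPM in WT, 19.2, 27.5 and 20.1 CPM in N108 and 35.8, 41.3 and 39.7 CPM in M3. M3 was again highest for both genes, and replicate 2 of N108 with TNF was the highest of its group for both. The log2 fold changes were 6.09, 6.13 and 6.66 for CXCL3 (SE 0.162 to 0.175) and 6.52, 6.28 and 6.81 for CXCL2 (SE 0.178 to 0.189) in WT, N108 and M3, all past the threshold in edgeR.

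CCL20 was all but absent without TNF. The untreated libraries held 3, 2 and 0 counts in WT, 0, 2 and 0 in N108, and 0, 2 and 3 in M3. With TNF CCL20 reached 3.35, 4.37 and 4.99 CPM in WT, 3.06, 4.19 and 2.78 CPM in N108, and 8.29, 8.55 and 7.92 CPM in M3. From summed counts the ratio of TNF to untreated was 165 in WT (95% interval 70.4 to 510), 326 in N108 (89.8 to 2698) and 291 in M3 (124 to 897). These intervals cover counting error only, overlap widely, and rest on 5, 2 and 5 untreated counts. Since the untreated libraries lay under the low-count filter, the difference is given as counts, with no p-value.

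CXCL16, the membrane-bound chemokine, behaved unlike the others. It was measured at 73.6, 72.5 and 71.1 CPM in untreated WT and at 86.6, 89.9 and 94.1 CPM with TNF, a fold change of 1.25 (log2 0.32, SE 0.0465, adjusted p = 4.9e-05, edgeR). N108 gave 75.5, 72.0 and 72.6 CPM untreated and 79.5, 87.8 and 79.3 CPM with TNF, a log2 difference of 0.16 that did not pass the test (SE 0.0464, adjusted p = 0.091, edgeR). M3 gave 84.4, 82.0 and 82.1 CPM untreated and 88.6, 90.4 and 87.6 CPM with TNF, a log2 difference of 0.10 (SE 0.0464, adjusted p = 0.49, edgeR). In all 3 genotypes the TNF libraries lay above the untreated ones without overlap, but the call held in WT and not in the mutants. In N108 the same difference passed in DESeq2 (adjusted p = 0.023) and in edgeR without replicate 3 of N108 with TNF (log2 0.19, adjusted p = 0.025). CXCL16 shares 85 bases with MED11 on the other strand, a gene at a mean of 12.3 CPM, and whether the counting told the strands apart is not given.

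CXCL5, the remaining neutrophil chemokine, was detected mainly in WT with TNF, at 4, 5 and 5 counts. It had 0 counts in untreated WT, in untreated N108 and in N108 with TNF, while M3 had 0, 0 and 2 counts untreated and 0, 2 and 0 with TNF. With 0 set to 3 counts over the group and the 14 counts of WT with TNF taken as exact, CXCL5 came out 5.62-fold higher in WT with TNF than without. On the same terms it came out 5.05-fold lower in N108 than in WT with TNF. Counting error of the 14 counts is left out, so neither value is a lower limit at a stated confidence. The ratio of M3 to WT with TNF was 0.136 (95% interval 0.015 to 0.594, counting error only). The low-count filter kept CXCL5 out of the tests. With no filter, TNF against untreated in WT gave a log2 fold change of 5.40 in edgeR, a value that depends on the prior count. Since 14 of its 18 counts came from WT with TNF, no p-value is given for CXCL5.

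**Figure D2:**
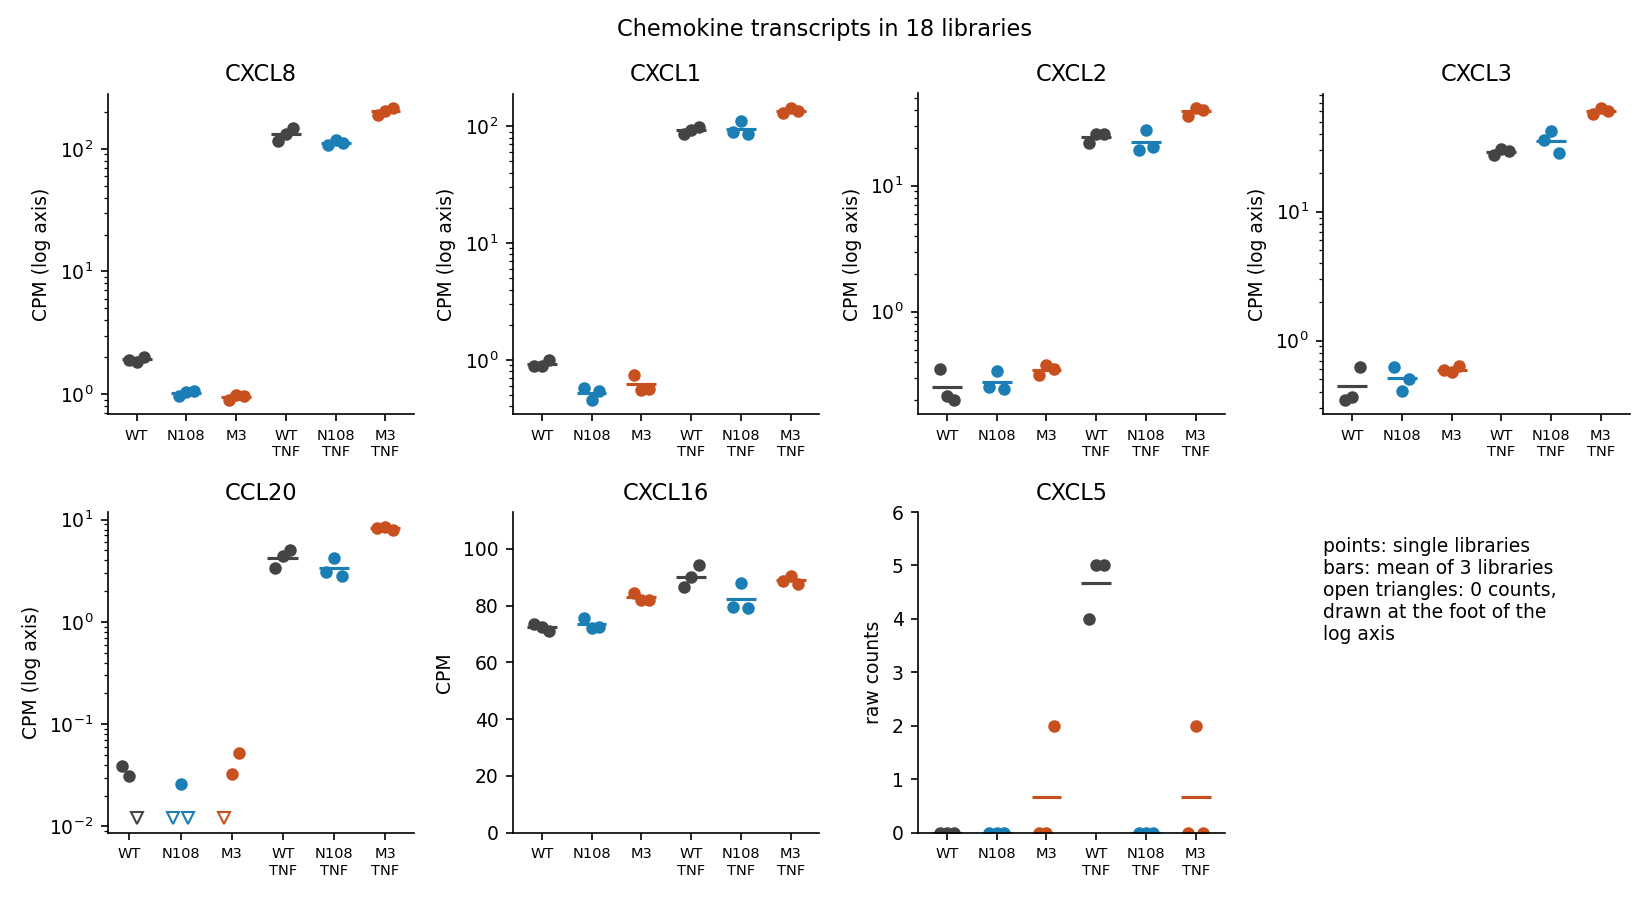
Levels of the 7 chemokine genes in 18 libraries, in CPM on a log axis for CXCL8, CXCL1, CXCL2, CXCL3 and CCL20, in CPM on a linear axis for CXCL16 and in raw counts for CXCL5; points are libraries and bars are means of 3. With TNF the 3 M3 libraries lie above all WT and N108 libraries for CXCL8, CXCL1, CXCL2, CXCL3 and CCL20, whereas CXCL16 stays between 71.1 and 94.1 CPM throughout.

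**Figure D3:**
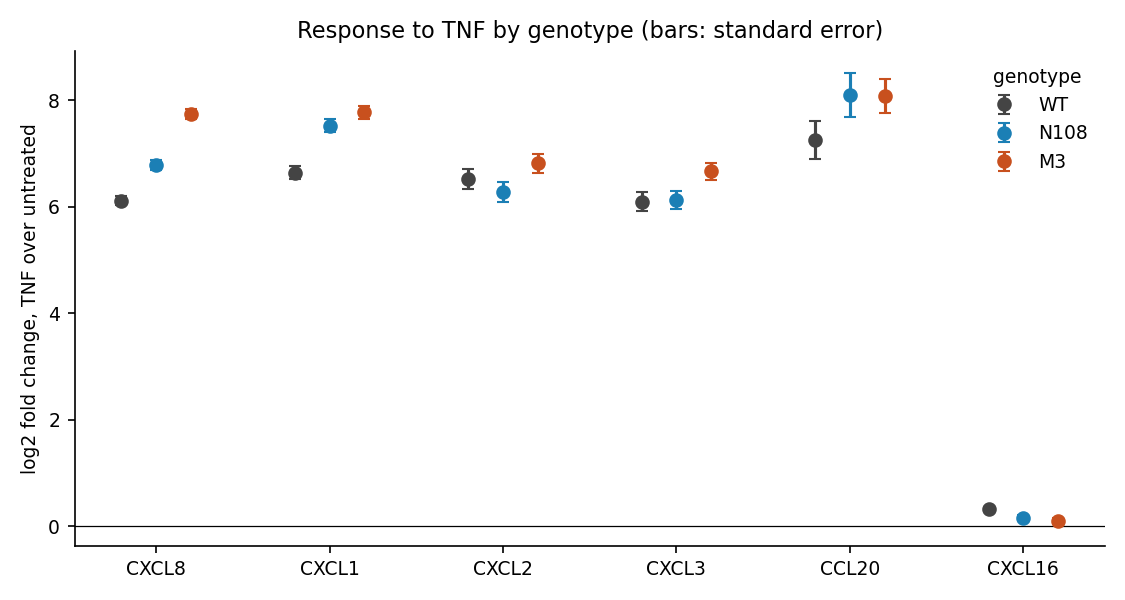
Log2 fold change of TNF over untreated for the 6 genes tested, by genotype, with standard errors. CXCL8 rises from 6.11 in WT to 7.74 in M3, and CXCL16 lies between 0.10 and 0.32.

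Before TNF, CXCL8 and CXCL1 were lower in both mutants than in WT. CXCL8 fell by 0.90 on the log2 scale in N108 (SE 0.137, adjusted p = 5.1e-06, edgeR) and by 1.01 in M3 (SE 0.143, adjusted p = 1.1e-06, edgeR), from 1.92 ± 0.0971 CPM (SD, n = 3) in WT to 1.02 ± 0.0412 and 0.946 ± 0.0406 CPM. CXCL1 fell by 0.83 in N108 (SE 0.217, adjusted p = 0.0033, edgeR) and by 0.57 in M3 (SE 0.214, adjusted p = 0.028, edgeR), from 0.926 ± 0.0639 to 0.522 ± 0.0593 and 0.619 ± 0.108 CPM. CXCL16 was higher in M3 than in WT (log2 0.19, SE 0.0465, adjusted p = 0.00093, edgeR) and lower in N108 than in M3 (log2 -0.18, SE 0.0464, adjusted p = 0.0046, edgeR). CXCL2, CXCL3 and CCL20 did not pass the test in any comparison of untreated lines, and between N108 and M3 neither did CXCL8 (log2 0.11, SE 0.161) nor CXCL1 (log2 -0.26, SE 0.241).

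In counts, 2 of 6 members were called between untreated N108 and WT, 3 of 6 between M3 and WT, and 1 of 6 between N108 and M3. These shares must be read against 42.4%, 52.9% and 31.5% of all genes tested in the same comparisons, so the number of chemokines called between untreated lines was close to that background. The medians of the 6 were -0.40, 0.16 and -0.25 on the log2 scale, against 0 to 0.01 for all genes. The untreated CXCL1 level in M3 rests on 43, 34 and 32 counts, and its difference from WT lost the call without replicate 2 (log2 -0.49, adjusted p = 0.10, edgeR) or 3 of M3 untreated (-0.51, 0.11) and without replicate 3 of WT untreated (-0.52, 0.073). It was lost as well when the trend of each library with the GC content of transcripts was removed (-0.64, 0.11).

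With TNF, the M3 line had more of all 5 strongly induced chemokine transcripts than WT and than N108. Against WT, CXCL3 was 2.06-fold higher (log2 1.05, SE 0.1), CCL20 1.94-fold (0.95, SE 0.143), CXCL2 1.60-fold (0.68, SE 0.102), CXCL8 1.54-fold (0.62, SE 0.0607) and CXCL1 1.47-fold (0.56, SE 0.0719), with edgeR adjusted p-values from 1.5e-09 to 1.4e-05. CXCL16 differed by -0.02 (SE 0.0464, adjusted p = 0.71, edgeR). In all, 5 of 6 members were called, all higher, against 54.7% of all genes called in either direction. The 3 M3 libraries lay above the 3 WT libraries for each of the 5 genes, as they did for 31.0% of all genes tested. The median of the 6 was 0.65 on the log2 scale, against 0.02 for all genes.

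N108 stood below M3 for the same 5 genes. CCL20 was 2.48-fold lower (log2 -1.31, SE 0.146), CXCL8 1.81-fold (-0.85, SE 0.0610), CXCL2 1.75-fold (-0.81, SE 0.103), CXCL3 1.70-fold (-0.77, SE 0.0991) and CXCL1 1.42-fold (-0.51, SE 0.0718), with edgeR adjusted p-values of at most 6.3e-06. CXCL16 missed the threshold (log2 -0.11, SE 0.0464, adjusted p = 0.058, edgeR). Thus 5 of 6 members were called, all lower in N108, against 37.3% of all genes called in either direction. The N108 libraries lay below the M3 libraries for each of the 5 genes, as for 21.6% of all genes tested. The call of CXCL16 was gained in DESeq2 (adjusted p = 0.036), with a filter at 1 CPM (0.039), with the GC trend removed (log2 -0.19, adjusted p = 0.00036), and in edgeR without replicate 2 of N108 with TNF (-0.16, 0.0062) or replicate 3 of WT with TNF (-0.11, 0.049).

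Between N108 and WT with TNF the differences were small. CXCL8 was 1.17-fold lower in N108 (log2 -0.23, SE 0.0609, adjusted p = 0.0029, edgeR), CXCL16 1.10-fold lower (-0.13, SE 0.0464, adjusted p = 0.019) and CXCL3 1.21-fold higher (0.28, SE 0.101, adjusted p = 0.033). CXCL1 (log2 0.05, SE 0.0721, adjusted p = 0.63), CXCL2 (-0.13, SE 0.105, adjusted p = 0.32) and CCL20 (-0.36, SE 0.155, adjusted p = 0.062) did not pass edgeR's test. For all 6 genes the libraries of the 2 groups overlapped, and 3 of 6 called compares with 46.7% of all genes.

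These N108 calls with TNF depended on the settings. With the GC trend removed CXCL8 differed by -0.02 (adjusted p = 0.86, edgeR). The CXCL8 transcript has 33.4% GC, and the trend removed at that GC content was -0.15, -0.26 and 0.01 on the log2 scale in the N108 libraries with TNF, against 0.04, 0.11 and 0.06 in WT with TNF. CXCL3 lost its call in DESeq2 (adjusted p = 0.11), in a fit on the 2 groups alone (0.097), with the GC trend removed (0.074), and in edgeR without replicate 1 (0.079) or 2 (log2 0.14, adjusted p = 0.20) of N108 or replicate 1 (0.11) or 3 (0.056) of WT. CXCL16 lost it in the fit on the 2 groups (0.097), and without replicate 1 (0.092) or 3 (0.076) of N108 or replicate 3 (0.11) of WT. Without replicate 2 of N108, CXCL2 (log2 -0.31, adjusted p = 0.0020, edgeR) and CCL20 (-0.54, 0.0052) were called lower, and CCL20 also without replicate 1 of WT (-0.50, 0.011) and with no low-count filter (adjusted p = 0.011).

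**Figure D4:**
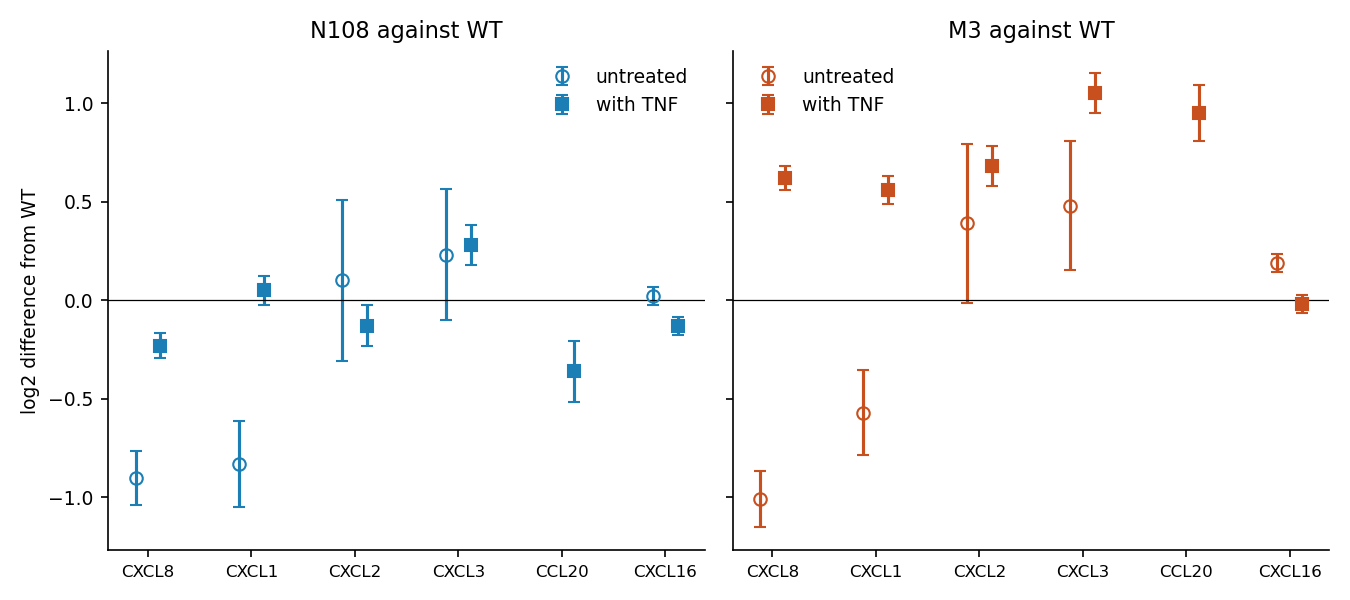
Log2 difference of each mutant from WT, untreated (open circles) and with TNF (filled squares), with standard errors; untreated CCL20, at 0 to 3 counts per library, is not drawn. CXCL8 and CXCL1 lie below 0 untreated in both mutants, and with TNF 5 genes lie above 0 in M3.

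The orders of the levels follow from these values. For CXCL8 the group means ran M3 with TNF (203 ± 13.1 CPM), WT with TNF (132 ± 15.2), N108 with TNF (112 ± 5.96), then WT, N108 and M3 untreated, and the neighbours WT and N108 with TNF overlapped, as did N108 and M3 untreated. For CXCL1 the order was M3 (135 ± 7.13 CPM), N108 (95.1 ± 13.5) and WT (92.0 ± 6.39) with TNF, then WT, M3 and N108 untreated, and N108 and WT with TNF overlapped. CXCL3 had the order M3 (60.3 ± 3.22 CPM), N108 (35.4 ± 6.77) and WT (29.2 ± 1.55) with TNF, and CXCL2 the order M3 (39.0 ± 2.82 CPM), WT (24.3 ± 2.28) and N108 (22.3 ± 4.56), and in both the lower 2 of these groups overlapped. CCL20 had the order M3 (8.25 ± 0.315 CPM), WT (4.24 ± 0.828) and N108 (3.34 ± 0.742) with TNF, the last 2 overlapping. CXCL16 ran from 90.2 ± 3.76 CPM in WT with TNF and 88.9 ± 1.41 in M3 with TNF to 72.4 ± 1.29 in untreated WT. Summed, CXCL8, CXCL1, CXCL2, CXCL3 and CCL20 went from 3.57 ± 0.257 CPM (SD, n = 3) to 281 ± 25.7 in WT, from 2.34 ± 0.0751 to 269 ± 30.2 in N108 and from 2.53 ± 0.0306 to 446 ± 23.3 in M3.

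Whether the response to TNF itself differed between genotypes was asked with the interaction term. It did for CXCL8 and CXCL1. The response of CXCL8 was larger than in WT by 0.67 on the log2 scale in N108 (SE 0.151, adjusted p = 0.016, edgeR) and by 1.63 in M3 (SE 0.155, adjusted p = 3.7e-07, edgeR), and in N108 it was smaller than in M3 (-0.96, SE 0.172, adjusted p = 0.017, edgeR). That of CXCL1 was larger than in WT by 0.87 in N108 (SE 0.228, adjusted p = 0.041, edgeR) and by 1.13 in M3 (SE 0.225, adjusted p = 0.030, edgeR). Each difference from WT joins a lower untreated level in the mutant with the level under TNF. Both mutants were set against the same WT libraries. In N108 against WT, CXCL8 and CXCL1 differed by -0.90 and -0.83 untreated, and by -0.23 and 0.05 with TNF. In M3 against WT they differed by -1.01 and -0.57 untreated, and by 0.62 and 0.56 with TNF. Between N108 and M3, CXCL8 differed by 0.11 untreated and by -0.85 with TNF. For CXCL2 and CXCL3 the differences from WT were -0.23 (SE 0.425) and 0.04 (SE 0.358) in N108 and 0.29 (SE 0.423) and 0.57 (SE 0.348) in M3, none past the threshold, and for CXCL16 they were -0.15 (SE 0.0657, adjusted p = 0.18, edgeR) and -0.22 (SE 0.0656, adjusted p = 0.19, edgeR). CCL20, with 2 to 5 untreated counts per group, missed the threshold as well.

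In counts, 2 of 6 members were called for N108 against WT (2.62% of all genes), 2 of 6 for M3 against WT (0.315%) and 1 of 6 for N108 against M3 (0.0788%). The larger response of CXCL8 in M3 than in WT kept its call under every setting tried. With the GC trend removed, the calls of CXCL1 (N108 0.92, adjusted p = 0.23; M3 adjusted p = 0.14, edgeR) and of CXCL8 for N108 against WT (0.94, 0.11) and against M3 (-0.76, 0.86) were lost, while CXCL16 was called, at -0.26 in N108 (0.021) and -0.24 in M3 (0.033). Leaving out single libraries ended the call of CXCL1 in N108 for replicates 1, 2 and 3 of untreated N108 and of untreated WT, replicates 2 and 3 of WT with TNF and replicate 3 of M3 with TNF (adjusted p 0.057 to 0.17, edgeR, log2 0.77 to 0.94). It ended that of CXCL1 in M3 for replicates 2 and 3 of untreated M3 and of M3 with TNF and replicates 1, 2 and 3 of untreated WT (adjusted p 0.051 to 0.13, edgeR, log2 1.05 to 1.16). For CXCL8 the call in N108 against WT ended without replicate 1 (0.057) or 2 (0.054) of untreated N108, and that against M3 without replicate 2 (0.12) or 3 (0.085) of untreated N108 or replicate 1 (0.087), 2 (0.069) or 3 (0.067) of untreated M3.

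The proportions between the transcripts with TNF were compared as ratios of counts, in which the depth of a library cancels but its trend with GC content does not. The ratio of CXCL3 to CXCL1 was 0.322, 0.327 and 0.304 in WT, 0.399, 0.380 and 0.335 in N108, and 0.444, 0.445 and 0.447 in M3. The 3 genotypes did not overlap, and M3 varied least. That of CXCL2 to CXCL1 was 0.264 ± 0.0110 (SD, n = 3) in WT, 0.233 ± 0.0177 in N108 and 0.287 ± 0.00870 in M3, again without overlap. The ratio of CXCL2 to CXCL3 was 0.832 ± 0.0363 in WT, 0.633 ± 0.0872 in N108 and 0.645 ± 0.0170 in M3, so that both mutants lay below WT and overlapped with each other. CCL20 to CXCL1 was 0.0458 ± 0.00593 in WT, 0.0349 ± 0.00267 in N108 and 0.0610 ± 0.00291 in M3. CXCL8 to CXCL1 was lowest in N108, at 1.19 ± 0.115, with 1.43 ± 0.0668 in WT and 1.5 ± 0.0880 in M3, and the last 2 overlapped. CXCL3 to CXCL8 overlapped between N108 and M3, and CCL20 to CXCL8 between N108 and WT. Ratios of genes other than these chemokines were not formed. How often such ratios separate the lines is thus not known, and 37.3% to 54.7% of all genes tested were called between lines with TNF. With 3 libraries against 3, a two-sided exact permutation test cannot go below p = 0.10, which is the p of each pair that did not overlap. With the GC trend removed, an alternative added after seeing the data, CXCL8 to CXCL1 was 1.35 ± 0.0573 in WT and 1.3 ± 0.0345 in N108 (SD, n = 3, exact permutation p = 0.6), and CCL20 to CXCL1 was 0.0434 ± 0.00521 and 0.0378 ± 0.00526 (exact permutation p = 0.2). N108 and WT then overlapped for both ratios, while the pairs that stood apart for CXCL3 to CXCL1, CXCL2 to CXCL1 and CXCL2 to CXCL3 still did.

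**Figure D5:**
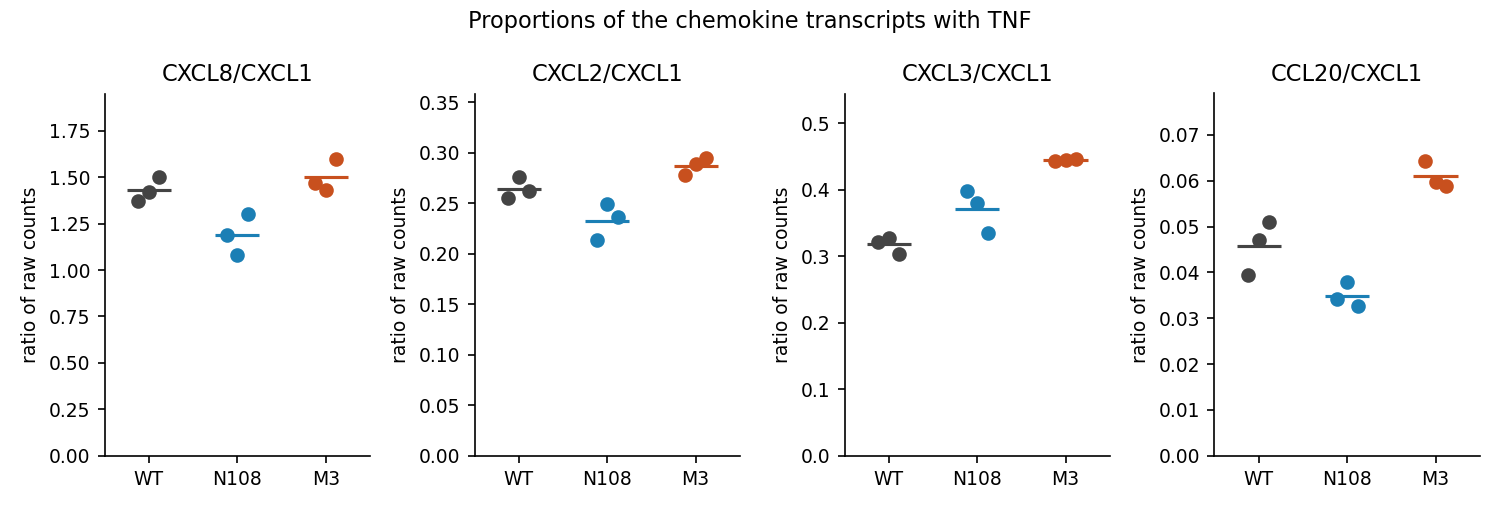
Ratio of the raw counts of CXCL8, CXCL2, CXCL3 and CCL20 to those of CXCL1 in the libraries with TNF, by genotype; points are libraries and bars are means of 3. The ratio of CXCL3 to CXCL1 rises from 0.318 in WT to 0.371 in N108 and 0.445 in M3.

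Levels of different genes were compared per kb of exon. With TNF in WT, CXCL1 had 71.0 ± 4.93 CPM per kb (SD, n = 3), CXCL8 57.9 ± 6.68, CXCL16 32.3 ± 1.34, CXCL2 16.2 ± 1.52, CXCL3 13.2 ± 0.699 and CCL20 2.66 ± 0.520. In M3 with TNF CXCL1 (104.5 ± 5.50 CPM per kb) and CXCL8 (89.2 ± 5.77) were again on top, and CXCL3 (27.2 ± 1.45) and CXCL2 (26.0 ± 1.88) were within their spread of each other. Of the sum of the 5 induced genes per length, CXCL1 made up 44.2% in WT, 47.0% in N108 and 41.5% in M3 with TNF, and CXCL8 35.9%, 31.9% and 35.4%. Untreated WT held more CXCL8 than CXCL1 by this measure, 43.5% against 36.8%. Without TNF CXCL16, at 25.9 to 29.6 CPM per kb, was the only one of the 7 above 1 CPM per kb. The length used matters here. Per kb of the longest transcript, CXCL8 was at 1.12 CPM in untreated WT, and CXCL3 and CXCL2 were at 36.8 and 32.0 in M3 with TNF.

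The 5 neutrophil chemokines lie in 359 kb of chromosome 4 (GRCh38, GENCODE 29), with CXCL8 (ENSG00000169429) at chr4:73740506-73743716 and CXCL1 (ENSG00000163739) at chr4:73869393-73871242 on the plus strand. CXCL5 (ENSG00000163735) at chr4:73995642-73998779, CXCL3 (ENSG00000163734) at chr4:74036589-74038807 and CXCL2 (ENSG00000081041) at chr4:74097035-74099293 are on the minus strand. CCL20 (ENSG00000115009) is at chr2:227805739-227817564 on the plus strand and CXCL16 (ENSG00000161921) at chr17:4733526-4739922 on the minus strand. Within the cluster the related genes CXCL6, PF4, PF4V1 and PPBP had 1, 0, 0 and 0 counts over all libraries. The nearest tested genes outside it did not change with TNF beyond the threshold: RASSF6, 119.9 kb before CXCL8, had log2 differences of 0.06, -0.19 and 0.20 in WT, N108 and M3, and MTHFD2L, 14.9 kb after CXCL2, of 0.11, -0.09 and 0.05. The same held for MED11 and ZMYND15 beside CXCL16 and for AGFG1 and LINC01807 beside CCL20. Because CXCL1, CXCL2 and CXCL3 are near copies, reads can be shared: 5.73%, 9.24% and 3.02% of the 50-base windows of their longest transcripts also occur in a transcript of another of the 3 genes. How reads from these windows were assigned, and what that does to the levels, was not tested. CXCL8 and CCL20 had 0 such windows, CXCL5 28 and CXCL16 12, shared with unrelated genes.

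The other chemokine ligands were nearly silent. Of 40 in the list, 39 were in the table, 15 had 0 counts in all 18 libraries, and 33 were under 0.1 CPM in every group. Only CCL28, a mucosal chemokine, and CXCL17 passed the filter. CCL28 was at 0.370 ± 0.00980 CPM (SD, n = 3) in untreated WT and 0.484 ± 0.0587 with TNF, with 19 to 28 counts per library. The mutants had 2 to 8 counts per library, so that CCL28 passed the filter through WT alone, and no p-value is given for its lower level there. With TNF, 0 of these 2 ligands were called in any genotype (edgeR; 0 at an unadjusted p under 0.05, and 0 by DESeq2). Of all genes tested, 2.03% rose and 3.15% fell in WT, 1.1% and 0.0998% in N108, and 1.1% and 0.278% in M3. The interferon-linked CXCL10, named here after its values were seen, had 5, 6 and 7 counts in WT with TNF and at most 5 in any other library.

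Of 23 chemokine receptors, 9 passed the filter. CXCR2, the receptor of the neutrophil chemokines, was at 0.635 ± 0.128 CPM (SD, n = 3) in untreated WT but at 0.0853 ± 0.0325 in N108 and 0.0790 ± 0.0161 in M3, with no overlap. With TNF it was at 0.653 ± 0.167, 0.0651 ± 0.0271 and 0.0543 ± 0.00725 CPM. CXCR2 passed the filter through WT alone (28 to 44 counts per library, against 3 to 7 in the mutants), so no p-value is given. CXCR4, the receptor of CXCL12, was higher in N108 (log2 1.51) and M3 (1.18) than in WT untreated. With TNF 2 of the 9 receptors rose in WT, CXCR4 (1.06) and CCR10 (1.67), a receptor of CCL28. In N108 or M3 0 of the 9 passed (edgeR; 1 in each at an unadjusted p under 0.05, and 0 by DESeq2). Since 2.03%, 1.1% and 1.1% of all genes rose in WT, N108 and M3, 0 of 9 is close to the share over all genes. CCR9 was at 0.592 CPM in untreated WT, had 0 counts in untreated N108 and 0.0112 CPM in M3. CCR6, the receptor of CCL20, and CXCR6, that of CXCL16, had 1 count each over the 18 libraries. The highest group mean among the receptors was 1.54 CPM, for CXCR4 in N108 with TNF. Of 7 tested genes in a list on chemokine processing (proteases that cut or shed chemokines, and the protease inhibitor TIMP3), 0 passed with TNF in any genotype in edgeR (3, 1 and 0 at an unadjusted p under 0.05 in WT, N108 and M3, and 0 by DESeq2). That count too is close to the shares of all genes just given. ADAM10, a protease that sheds CXCL16, was lower in N108 (log2 -0.26) and M3 (-0.55) than in WT untreated, and DPP4, which trims chemokines, was higher in N108 (1.72). Of the 7 processing genes, 4 were called higher and 2 lower in untreated N108 than in WT, and 2 higher and 3 lower in M3. These differences, and that of CXCR4 before TNF, stand beside 42.4% (N108) and 52.9% (M3) of all genes called in the same comparisons.

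Other genes of the TNF and NF-κB route were counted from lists. Of 12 IκB proteins and feedback inhibitors, the numbers that rose with TNF were 6 (WT), 7 (N108) and 6 (M3), with list medians of 0.35, 0.44 and 0.41. For these counts and those of the next 3 lists, the shares of all genes that rose were 2.03%, 1.1% and 1.1%. NFKBIA (log2 3.05, 3.19 and 3.63 in WT, N108 and M3), TNFAIP3 (3.36, 4.04 and 4.80), which removes ubiquitin chains, and NFKBIZ (3.03, 3.79 and 4.36), a nuclear IκB protein, had the smallest p-values. Of 23 genes of the chain from TNF receptor to NF-κB, 4 rose in WT, 3 in N108 and 4 in M3, led by BIRC3 (3.54, 2.86 and 3.38), and RNF31 fell in WT, a call lost in 3 of 18 single omissions (adjusted p up to 0.21, edgeR). The N108 count includes RELB (log2 0.36, adjusted p = 0.043, edgeR), whose call was lost in 12 of 18 single omissions (up to 0.37), in the fit on its own groups (0.098), with a filter at 1 CPM (0.052) and with the GC trend removed (0.074). Of 16 partner transcription factors, 10 rose in each genotype, with IRF1 (2.78, 2.64 and 3.08), JUN (2.81, 3.23 and 3.55) and JUNB (2.11, 1.96 and 2.13) first by p, and FOS fell in WT, a call lost in 6 of 18 single omissions (adjusted p up to 0.15, edgeR). Of 17 genes of chemokine mRNA turnover, 4 rose in WT, 4 in N108 and 3 in M3, with ZFP36 (1.87, 1.78 and 2.22), whose protein speeds the decay of such mRNAs, and ZC3H12A (1.24, 1.77 and 1.90), an RNase that does so too. The medians of the last 3 lists, in WT, were 0.02, 0.52 and 0.11 against 0.01 for all genes.

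Before TNF, TNFAIP3 and NFKBIZ were lower in the mutants than in WT, as CXCL8 was. They are 2 of the 12 IκB proteins and feedback inhibitors. Of these 12, 5 were called lower and 2 higher in untreated N108 than in WT, and 9 lower and 1 higher in M3. Among all genes tested, 42.4% (N108) and 52.9% (M3) were called in the same comparisons, in either direction. TNFAIP3 went from 24.8 ± 0.190 CPM (SD, n = 3) in WT to 9.51 ± 0.455 in N108 and 7.58 ± 0.561 in M3 (log2 -1.38 and -1.71). NFKBIZ went from 6.58 ± 0.235 to 3.93 ± 0.425 and 3.21 ± 0.123 (-0.74 and -1.04). With TNF, NFKBIZ was at 53.8 ± 2.76, 54.5 ± 4.49 and 66.0 ± 2.34 CPM in WT, N108 and M3, and TNFAIP3 at 255 ± 10.4, 157 ± 14.9 and 211 ± 6.71. In M3 TNFAIP3 thus stayed below WT with TNF (log2 -0.27, adjusted p = 0.00014, edgeR), whereas CXCL8 was above it.

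The genes whose levels over the 18 libraries were most like those of a chemokine, by Pearson's r on log2 CPM, were NFKBIZ (0.996), JUN (0.993) and NUAK2 (0.992) for CXCL8, and JUN (0.993), NFKBIZ (0.992) and NUAK2 (0.992) for CXCL1. For CXCL3 they were NUAK2 (0.995), JUN (0.990) and JUNB (0.987), for CXCL2 NUAK2 (0.992), EFNA1 (0.990) and NOCT (0.989), and for CCL20 JUN (0.989), NOCT (0.988) and NUAK2 (0.987). CXCL16 had weaker matches in IRF2BPL (0.931), PLAUR (0.909) and SIX5 (0.904). Among the members, CXCL8 and CXCL1 had an r of 0.998, and CXCL16 had 0.738 to 0.791 with the others. The libraries fall into untreated and treated ones and share depth and library effects, so any gene that rises strongly with TNF has a high r here.

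Markers of colon epithelium were abundant as a sum, at 4129 to 7487 CPM per library, and 11 of 15 were tested. By group, 9 or 10 of the 15 had a mean of at least 1 CPM, while 3 or 4 lay under 0.1 CPM. The sum differed between lines. The sum was 6710 to 7487 CPM in WT, 5186 to 5729 in N108 and 4129 to 4795 in M3, treated and untreated libraries together. EPCAM was at 287 ± 8.57 CPM (SD, n = 3) in untreated WT. Of the 12 leukocyte markers 3 were tested, with a sum of 0.668 to 4.61 CPM, LYZ being the highest in WT, and PTPRC, the pan-leukocyte marker, had 1 count in all. The 8 fibroblast markers (3 tested) summed to 19.8 to 39.2 CPM, with 2 at 1 CPM or more and 5 under 0.1 CPM in each group. The 6 endothelial markers (2 tested) summed to 1.05 to 2.34 CPM. The part of these differences between lines in the chemokine levels was not tested.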

How the data were processed

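Raw read counts for each gene in 18 libraries of HCT116 knock-in cells, read as 50 bp pairs per the labels, were deposited by the authors. The submitters' processing notes list STAR 2.7.8, Trim Galore 0.6.6, DESeq2 1.38.3, Subread 2.0.1 with featureCounts, and hg38. For the annotation and the strand setting, the sources used here state nothing. A second deposited table, with normalized values on a log2 scale for 27339 genes, was inspected and not used, since counts allow a count test. Symbols were matched for 99.8% of genes, and positions came from GENCODE 29.

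The counts went into edgeR 4.0.16 (R 4.3.3). filterByExpr at a minimum count of 10 kept 19038 genes with 99.97% of the counts. TMM factors scaled the libraries, and a robust quasi-likelihood model had 1 mean for each of 6 groups, leaving 12 residual degrees of freedom. From it came 12 two-sided comparisons, adjusted by Benjamini-Hochberg across the whole set of tested genes at a threshold of 0.05. The SE was obtained by dividing the size of the log2 fold change by the root of F. CPM used TMM-scaled totals, and likeness used log2 CPM with a prior count of 2. Depth sets the precision: 3 counts correspond to 0.0386 to 0.0615 CPM. Counting intervals are exact and at 95%, and a group at 0 counts was set to a floor of 3 counts over the group. Both leave out everything but counting error, because no molecular identifiers were counted. The floor also takes the counts of the other group as exact.

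The members and lists were chosen with earlier results of these data known. Named were all 7 members, other ligands that passed the filter, genes among the 3 with the smallest p in each list and comparison, the 3 genes most like each member, the nearest tested genes, and defining markers. Alternatives were DESeq2 1.42.0, its size factors in edgeR, other filters, separate fits, removal of each library's trend with transcript GC content (known for 97.4% of tested genes), a replicate block and omission of single libraries. Replicate numbers did not pair the samples. The fits were tested on simulated data.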

Additional observations from a re-analysis of the deposited data

Results flagged for a closer look

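The response to TNF differed between genotypes for CXCL8 and CXCL1 and for some regulators of the same route, by the interaction term in edgeR's quasi-likelihood test (adjusted p from 3e-11 to 0.047). In N108 the response was larger than in WT for CXCL1 (log2 0.87), CXCL8 (0.67), NFKBIZ (0.76), TNFAIP3 (0.68), ZC3H12A (0.53) and JUN (0.42), and smaller for BIRC3 (-0.67). In M3 it was larger than in WT for CXCL8 (1.63), TNFAIP3 (1.44), NFKBIZ (1.33), CXCL1 (1.13), JUN (0.74), ZC3H12A (0.66), NFKBIA (0.58), ATF3 (0.57), ZFP36 (0.35) and RNF31 (0.87), a gene that fell with TNF in WT. In N108 it was smaller than in M3 for CXCL8 (-0.96), TNFAIP3 (-0.76), ATF3 (-0.58), NFKBIZ (-0.57), NFKBIA (-0.44), ZFP36 (-0.44) and IRF1 (-0.44).

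Several of these calls rest on single libraries. For M3 against WT, 14 of the 18 single omissions ended the calls of RNF31 (highest adjusted p = 0.19, edgeR) and ZFP36 (0.18), and 0 ended those of CXCL8, TNFAIP3, NFKBIZ, NFKBIA, ATF3, ZC3H12A and JUN. For N108 against M3, 14 ended the call of IRF1 (0.22), 9 that of NFKBIZ (0.22), 4 that of ZFP36 (0.099) and 1 each those of ATF3 (0.057) and NFKBIA (0.057). In the fit on the groups of that comparison alone IRF1 (0.18), NFKBIZ (0.093) and ZFP36 (0.081) were not called, nor was IRF1 with a filter at 1 CPM (0.077). For N108 against WT, 7 ended the call of JUN (0.092) and 1 that of ZC3H12A (0.056), and with the GC trend removed BIRC3 (-0.43, adjusted p = 0.10), JUN (0.30, 0.076) and ZC3H12A (0.35, 0.064) were not called. The calls of CXCL1 ended in 9 omissions for N108 against WT (0.17) and 7 for M3 against WT (0.13). Those of CXCL8 ended in 2 for N108 against WT (0.057) and 5 for N108 against M3 (0.12). All of these CXCL1 and CXCL8 calls were also lost with the GC trend removed (adjusted p 0.11 to 0.86, edgeR).

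CXCL5 lay outside the tests and had 14 counts in WT with TNF, against 0 in untreated WT.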

How the results depend on the processing

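No member reversed its direction with a call under any alternative. Over the members tested, 1808 of the values under alternatives kept direction and side of the threshold, 16 gained a call and 48 lost one. Over the other genes of the lists that passed and had the smallest p-values, 4166 kept both and 108 lost a call. The number of members called for N108 against WT with TNF was 3. It became 5 with no low-count filter, with CXCL5, at 0 counts in N108, among them. CXCL5 had its counts almost only in WT with TNF, so that call was set by this group and carries no weight. It was 1 in a fit on the 2 groups alone or with the GC trend removed. The interaction of N108 against WT went from 2 members to 1 with the GC trend removed (CXCL8 and CXCL1 were lost and CXCL16 gained), and that of N108 against M3 from 1 to 0 in edgeR (1 at an unadjusted p under 0.05; DESeq2, without that removal, called 1). For M3 against WT the number stayed at 2, but CXCL1 was replaced by CXCL16. Among ratios, removal of the GC trend, an alternative added after seeing the data, moved some group means by at least their SD. These were CXCL3 to CXCL1 in M3 (0.445 to 0.456, SD 0.00191), CXCL8 to CXCL1 in WT (1.43 to 1.35, SD 0.0668) and CCL20 to CXCL1 in N108 (0.0349 to 0.0378, SD 0.00267). CXCL8 to CXCL1 in N108 went from 1.19 to 1.3, with an SD of 0.115, and N108 and WT then overlapped. Omitting single libraries gave 6 to 6 members for TNF in WT, 5 to 6 in N108 and 5 to 5 in M3, 2 to 2, 2 to 3 and 1 to 1 for N108 against WT, M3 against WT and N108 against M3 untreated, 1 to 4, 5 to 5 and 5 to 6 with TNF, and 0 to 2, 1 to 2 and 0 to 1 for the interactions in the same order.

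Counts over all genes moved more. TNF in WT called 987 genes and 432 without replicate 3 of WT with TNF. TNF in N108 called 228 genes, 143 without replicate 2 of untreated N108, 144 in its own groups, 652 with no filter and 1346 without replicate 3 of N108 with TNF. The interactions called 498 (N108 against WT; 150 with the GC trend removed, 1362 with no filter, 180 to 2447 over single omissions), 60 (M3 against WT; 265 with no filter, 14 to 132 over single omissions) and 15 genes (N108 against M3; 7 in its own groups, 163 with no filter, 4 to 642 over single omissions). The cause was not tested.

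Same-numbered replicates did not deviate together: over 45 pairs the correlation of deviations ran from -0.147 to 0.103, with 1 above 0.1. A fit with a replicate block called the same numbers of members as the fit without it (6, 5 and 5 with TNF; 2 and 2 for the interactions with WT). Among the other named genes it ended the calls of RELB with TNF in N108 (adjusted p = 0.056, edgeR), of RNF31 (0.057) and ZFP36 (0.067) in the interaction of M3 with WT, of IRF1 (0.12) in that of N108 with M3, and of ACKR2 (0.058) between N108 and M3 with TNF. Block and removal of the GC trend together gave 1 member for the interaction of N108 against WT and 0 for that against M3. Depth limits CXCL5 and untreated CCL20, at 0 to 5 counts per library.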
